A study of Mus musculus with 12 samples.

Results

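The 7 genes described here encode the transcription factors through which the circadian clock reaches its output genes: the PAR-bZIP activators Tef, Hlf and Dbp, their bZIP antagonist Nfil3, the bHLH-Orange repressors Bhlhe40 and Bhlhe41, and Ciart. They were taken by gene symbol from the deposited count table, in which each symbol matched 1 of 48795 genes, and all 7 were among the 17725 genes that passed the filter on low counts. RNA came from the piriform cortex, the olfactory area of the cortical mantle, of 12-month-old mice on a C57BL/6 background. The Q140 group held 6 animals heterozygous for a Htt knock-in allele with an expanded CAG repeat, a model of Huntington's disease, and the wild types were 6 animals of the same age and background, with 3 males and 3 females per group. Each library was a separate animal. The knock-in sits in the endogenous gene, so every cell type that uses Htt carries it, and bulk RNA does not separate those cells. The time of day at which the tissue was taken is not given in the sources used here.

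In the mammalian clock, the CLOCK and BMAL1 proteins (genes Clock and Arntl) switch on genes that carry an E-box, among them the Per and Cry genes, whose proteins then shut CLOCK and BMAL1 off. Tef, Hlf and Dbp are themselves E-box genes in part, and their proteins activate targets through another element, the D-box, where NFIL3 acts as a repressor. BHLHE40 and BHLHE41 occupy E-boxes and repress through them, BHLHE40 is also induced by neuronal activity, and CIART (also known as CHRONO) inhibits CLOCK and BMAL1. In the brain the PAR-bZIP proteins are known for control of pyridoxal kinase, and mice that lack all of Tef, Hlf and Dbp are prone to seizures.

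The promoters of these genes show what the levels below can be read beside. RefSeq windows of 300 bases (250 before to 50 after an annotated start, GRCm38.p6) were found for 6 of the 7 genes, with 7 windows because Tef has 2, and Bhlhe40 had no entry. The E-box CACGTG, which reads alike on both strands, lay in 4 of the 7 windows and in 7.15% of all 32851 mouse windows. Ciart had 3 copies, a number reached by 0.0883% of windows. Printed 5′ to 3′ on the gene's strand, with the searched motif in capitals, these are the windows that carry an E-box and, for contrast, that of Hlf, which carries none but has the cyclic AMP element TGACGTCA (1.79% of windows).
Ciart, chr3:95882179-95882478, minus strand: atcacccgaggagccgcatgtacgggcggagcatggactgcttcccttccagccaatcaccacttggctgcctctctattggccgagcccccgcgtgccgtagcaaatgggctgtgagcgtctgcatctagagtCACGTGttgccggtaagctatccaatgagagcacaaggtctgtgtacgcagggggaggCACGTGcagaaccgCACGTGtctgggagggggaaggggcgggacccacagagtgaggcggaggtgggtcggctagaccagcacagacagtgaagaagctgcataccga
Tef, upstream start, chr15:81802423-81802722, plus strand: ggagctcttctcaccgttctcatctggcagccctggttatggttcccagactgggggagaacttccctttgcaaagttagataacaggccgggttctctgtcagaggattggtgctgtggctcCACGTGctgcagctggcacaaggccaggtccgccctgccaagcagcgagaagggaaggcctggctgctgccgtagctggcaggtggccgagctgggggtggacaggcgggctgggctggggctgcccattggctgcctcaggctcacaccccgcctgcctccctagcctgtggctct
Tef, downstream start, chr15:81811164-81811463, plus strand: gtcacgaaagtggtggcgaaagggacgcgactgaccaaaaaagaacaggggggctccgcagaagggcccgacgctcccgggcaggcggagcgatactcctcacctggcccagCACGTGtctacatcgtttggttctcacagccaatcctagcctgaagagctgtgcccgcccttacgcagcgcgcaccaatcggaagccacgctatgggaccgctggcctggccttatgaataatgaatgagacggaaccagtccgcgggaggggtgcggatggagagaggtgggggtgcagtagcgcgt
Bhlhe41, chr6:145865371-145865670, minus strand: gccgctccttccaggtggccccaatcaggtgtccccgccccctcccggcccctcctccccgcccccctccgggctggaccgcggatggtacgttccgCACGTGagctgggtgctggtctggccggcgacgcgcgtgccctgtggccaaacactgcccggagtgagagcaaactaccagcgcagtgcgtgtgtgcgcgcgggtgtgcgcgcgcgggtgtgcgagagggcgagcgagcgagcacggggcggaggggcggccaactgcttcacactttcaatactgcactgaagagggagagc
Hlf, chr11:90390868-90391167, minus strand: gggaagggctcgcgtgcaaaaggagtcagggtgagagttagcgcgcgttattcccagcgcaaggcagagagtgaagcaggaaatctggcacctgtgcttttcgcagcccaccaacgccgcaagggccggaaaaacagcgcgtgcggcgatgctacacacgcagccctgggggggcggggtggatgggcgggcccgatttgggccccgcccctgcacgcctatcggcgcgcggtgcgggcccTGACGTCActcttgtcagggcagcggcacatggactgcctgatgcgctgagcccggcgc

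The E-boxes of Ciart began 116, 58 and 44 bases before its start, that of Bhlhe41 153 bases before, and those of Tef 127 and 138 bases before its respective starts. The element in the Hlf window began 9 bases before the start. The Nfil3 window held a Rev-erb and ROR element (searched as ANTNGGTCA, both strands, in 2.24% of windows) as TGACCTACT, 12 bases before the start on the opposite strand. The Dbp window held none of the 6 motifs. The D-box, searched as TTATGNAA (3.38% of windows) and as the palindrome TTACGTAA (0.119%), and the variant E-box CACGTT (4.68%) were in none of the 7 windows on either strand. None of the matches overlapped another, and a match describes letters only.

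Total counts were 19587208 to 35198602 per animal. Htt, the targeted gene, averaged 195.7 ± 8.15 CPM (reads per library scaled to a common total) over wild types and 151.5 ± 8.19 over Q140 animals (SD, n = 6; log2 fold change -0.37, edgeR adjusted p = 0.000203). Meningeal markers were far lower in wild type 3 (summed 35.8 CPM) than in any other animal, and striatal projection neuron markers were lowest in wild type 6 (426.6 CPM).

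Of the 7 regulators, 5 were lower in Q140 cortex and none was higher. The PAR-bZIP activators fell by 15.8% (Tef), 20.0% (Hlf) and 18.5% (Dbp), and the repressors Bhlhe40 and Ciart fell by 33.2% and 33.3%. Nfil3 and Bhlhe41 did not pass the test. By the quasi-likelihood test of edgeR, with Benjamini-Hochberg adjustment over all genes tested and a threshold of 0.05, 6.69% of all genes were lower, 4.5% were higher and 11.2% passed in either direction. The median log2 fold change of the 7 genes was -0.30, against 0.00 over all genes. Leaving out wild types 3 and 6, an alternative added after the data were examined, left 4 of the 7 regulators lower, with Dbp at -0.29 (edgeR adjusted p = 0.0702). In that setting 562 of 18044 genes were lower, and 4.78% passed in either direction. With the prefix of the animals' names as a covariate none of the 7 passed, as set out below.

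**Figure D1:**
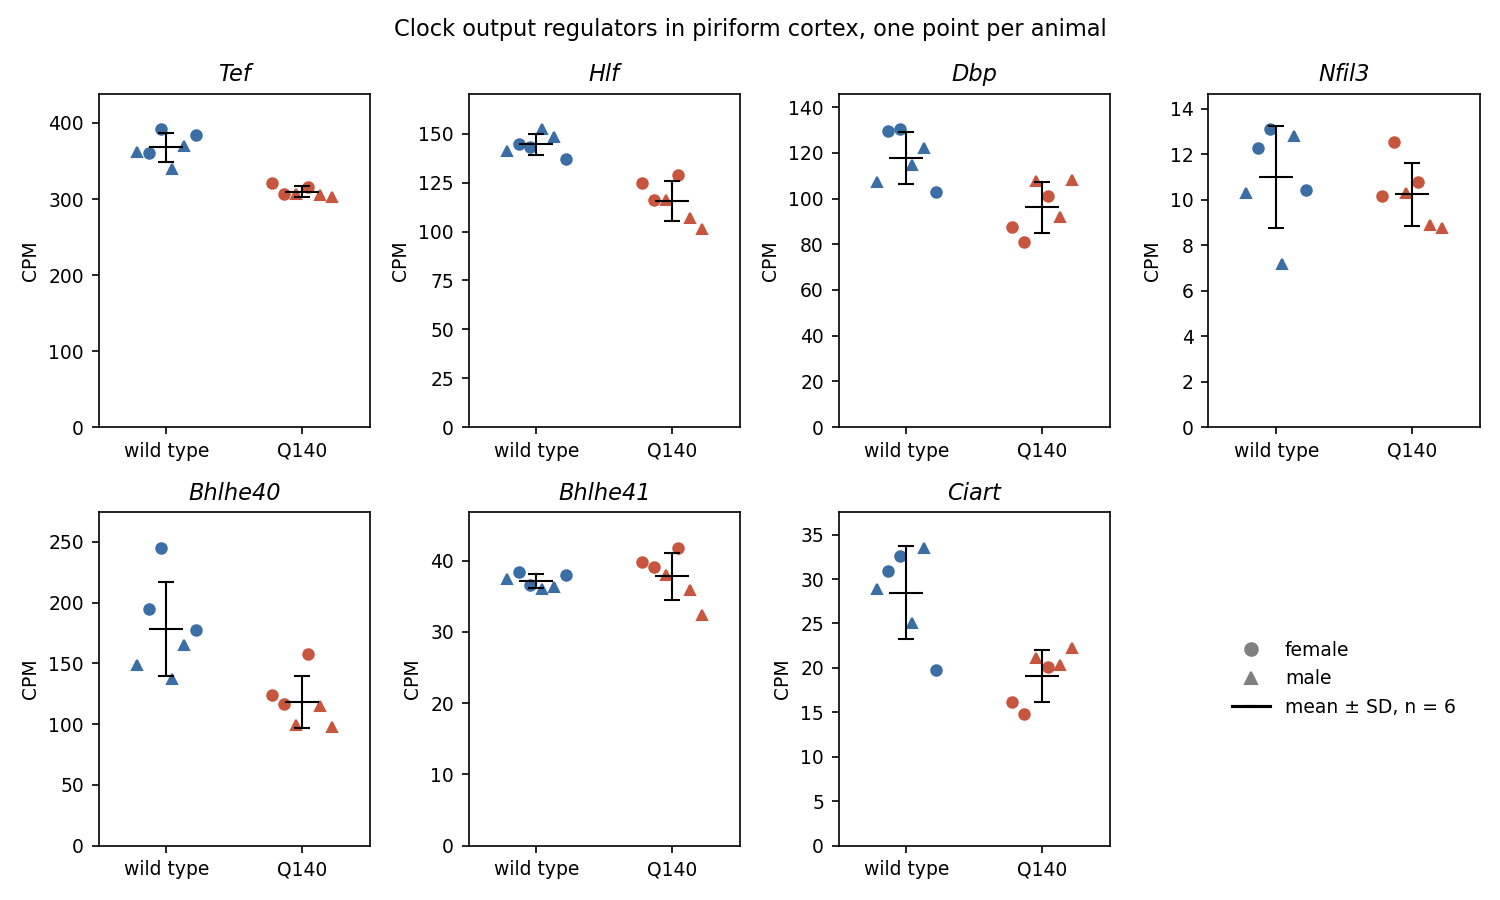
Level of each regulator in CPM (vertical axis from 0) in 6 wild types and 6 Q140 animals, 1 point per animal, circles for females and triangles for males, with mean ± SD. For Tef and Hlf every Q140 animal lies below every wild type, and the Bhlhe41 means of 37.1 and 37.8 CPM are nearly level.

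Tef (thyrotroph embryonic factor, ENSMUSG00000022389, chr15:81802421-81826863, GRCm38) had the highest level per length of the 7. In wild types its lowest, median and highest values were 339.9, 366 and 392 CPM, and in Q140 animals 303, 307 and 321 CPM. The groups did not overlap, a property shared by 2.7% of all genes in this direction. The means were 368 ± 18.6 and 309.6 ± 6.92 CPM (SD, n = 6 each), -0.25 on the log2 scale (SE 0.0359, edgeR adjusted p = 0.000863).

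Hlf (hepatic leukemia factor, ENSMUSG00000003949, chr11:90336536-90390895), a close relative of Tef with the same DNA-binding domain type, also separated the groups without overlap. Wild types ranged from 137 to 152 CPM with a median of 144, and Q140 animals from 102 to 129 CPM with a median of 116. The spread among Q140 animals was wider than among wild types (116 ± 10.3 against 144 ± 5.24 CPM, SD, n = 6). The log2 fold change was -0.32 (SE 0.0524, edgeR adjusted p = 0.00194). The 3 Q140 females, at 116 to 129 CPM, reached higher than the 3 Q140 males, at 102 to 116 CPM.

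Dbp (D-box binding PAR bZIP factor, ENSMUSG00000059824, chr7:45705088-45710203), the most strongly cycling of the activators in most tissues, overlapped between the groups. Its wild types spanned 103, 118 and 130.3 CPM (lowest, median, highest) and its Q140 animals 81.0, 96.5 and 108 CPM. Of the Q140 animals, 4 lay below the lowest wild type, wild type 6, and all 6 lay below the wild type mean of 118 ± 11.5 CPM. The log2 fold change was -0.30 (SE 0.0794, edgeR adjusted p = 0.0292). This call was the least stable of the 5: the adjusted p was 0.0689 without Q140 1, 0.0729 without Q140 2, 0.0632 without wild type 2, 0.0699 without wild type 3 and 0.0536 without wild type 5, and 0.0713 on log2(FPKM + 0.1).

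Nfil3 (nuclear factor, interleukin 3 regulated, ENSMUSG00000056749, chr13:52967209-52981073), the repressor at D-boxes, was the lowest of the 7 by CPM. It was counted with 171 to 441 reads per animal. Its values ran from 7.16 to 13.1 CPM in wild types (median 11.3) and from 8.74 to 12.5 CPM in Q140 animals (median 10.2), with wild type 4 below every Q140 animal. The log2 fold change of -0.11 (SE 0.117) had an edgeR adjusted p of 0.605 and a 95% interval from -0.36 to 0.14, which holds the fold changes of the 3 activators.

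Bhlhe40 (ENSMUSG00000030103, chr6:108660629-108666925) encodes the more abundant of the 2 paralogous E-box repressors in this tissue. Wild types ran from 137 (wild type 4) to 245 CPM (wild type 3) with a median of 171, and Q140 animals from 97.8 to 158 CPM (Q140 4) with a median of 116. Of the 6 Q140 animals, 5 were below the lowest wild type. The mean was 178 ± 38.7 CPM in wild types against 118 ± 21.7 in Q140 (SD, n = 6 each), or -0.58 on the log2 scale (SE 0.0894, edgeR adjusted p = 0.00129).

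Its paralog Bhlhe41 (ENSMUSG00000030256, chr6:145858243-145865558) was spread more widely in Q140 than in wild types. Wild types lay within 36.0 to 38.5 CPM and Q140 animals within 32.3 to 41.8 CPM, so that 3 Q140 animals stood above all wild types and 2 below. The 3 above were the Q140 females (39.0 to 41.8 CPM), and the 2 below were Q140 males. The means were 37.1 ± 0.961 and 37.8 ± 3.32 CPM (SD, n = 6 each). Its log2 fold change was 0.03 (SE 0.0462, edgeR adjusted p = 0.774) with a 95% interval from -0.07 to 0.12, apart from the interval of Bhlhe40 (-0.77 to -0.39). The difference between the paralogs' fold changes was not itself tested.

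Ciart (circadian associated repressor of transcription, ENSMUSG00000038550, chr3:95878503-95882251), with its 3 promoter E-boxes printed above, fell as far as Bhlhe40. Its wild types lay at 19.8, 29.9 and 33.5 CPM (lowest, median, highest) and its Q140 animals at 14.9, 20.2 and 22.3 CPM. Wild type 6 was the lowest wild type, and the next was at 25.0 CPM, above all Q140 animals. The log2 fold change was -0.59 (SE 0.119, edgeR adjusted p = 0.00724), and -0.66 (adjusted p = 0.0017) without wild type 6.

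Genes on the opposite strand overlap 5 of the 7, and the strand setting of the counting is unknown here, so their reads cannot be told apart with certainty. The neighbours' own counts were low beside the regulators: Sphk2, which overlaps Dbp, was at 24.5 CPM in wild types against 26.3 in Q140 (log2 fold change 0.10, edgeR adjusted p = 0.213). Gm17597, 0610040F04Rik, Gm43909 and C920021L13Rik, which overlap Tef, Bhlhe40, Bhlhe41 and Ciart, had means between 0.578 and 1.47 CPM in both groups. Hlf and Nfil3 overlap no annotated gene.

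Per length, as the authors' FPKM gives it, the order in wild types was Tef (46.0 ± 1.95 FPKM), Dbp (38.7 ± 3.80), Bhlhe40 (37.2 ± 7.77), Hlf (21.3 ± 0.962), Ciart (12.4 ± 2.31), Bhlhe41 (5.43 ± 0.126) and Nfil3 (5.34 ± 1.07; SD, n = 6). Dbp and Bhlhe40 overlapped animal by animal, as did Bhlhe41 and Nfil3, while the other neighbours in this order did not, Tef and Dbp narrowly (lowest Tef 42.9, highest Dbp 42.5 FPKM). In Q140 animals the means stood in the same order, at 40.0 ± 0.600, 32.7 ± 4.18, 25.5 ± 4.40, 17.6 ± 1.37, 8.60 ± 1.44, 5.71 ± 0.441 and 5.13 ± 0.636 FPKM. The activators at D-boxes were thus each more than 3 times as high per length as their antagonist Nfil3 in both groups.

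**Figure D2:**
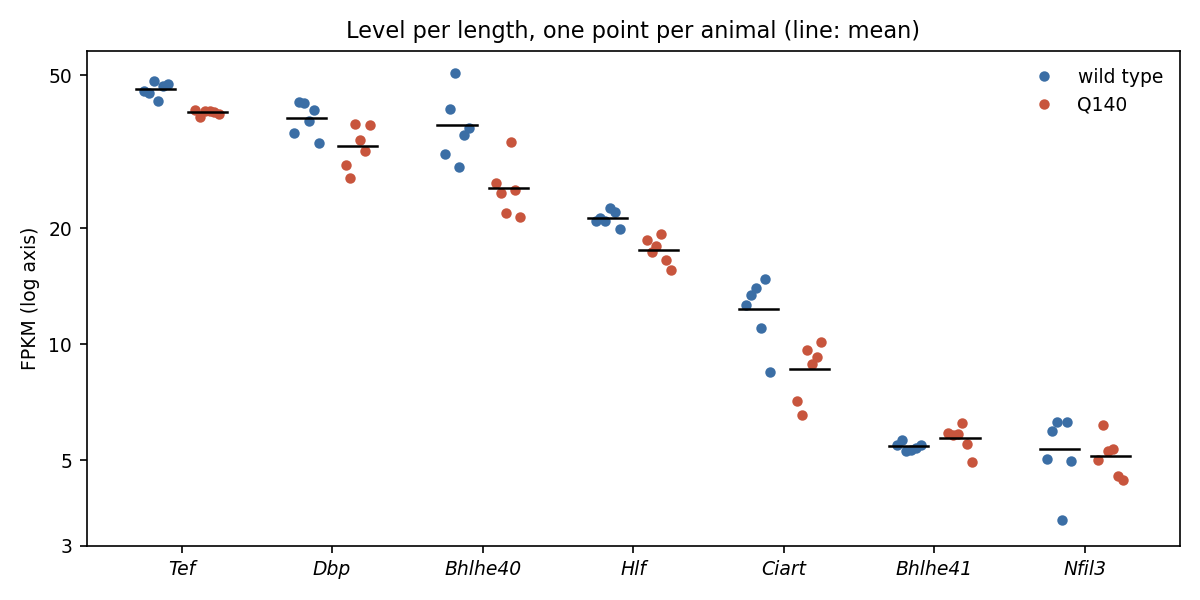
FPKM of each regulator (log axis), 1 point per animal, blue for wild types and red for Q140, with a line at each group's mean. Means run from 46.0 FPKM for Tef to 5.34 FPKM for Nfil3 in wild types and follow the same order in Q140.

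These were bulk samples, in which fewer cells of a type and less RNA per cell cannot be told apart. Of 14 excitatory neuron markers, 6 were lower and 0 higher. Among the 6 was Slc17a7, the vesicular glutamate transporter of cortical excitatory neurons (1823 ± 104 and 1438 ± 128 CPM). All 14 excitatory markers had a negative log2 fold change, with a median of -0.33. Their summed level was 7201 to 9378 CPM in wild types against 5907 to 6604 in Q140, without overlap. In this sum Camk2a alone averaged 3714 CPM in wild types. With equal weight per marker, as the mean of log2 CPM centred per gene, the groups overlapped. These means were -0.16 to 0.44 in wild types and -0.26 to -0.04 in Q140. Of 12 inhibitory neuron markers, 4 were lower, with summed levels of 742 to 934 CPM in wild types against 642 to 806 in Q140. Of 12 oligodendrocyte markers 5 were higher, with sums of 3701 to 5230 CPM in wild types against 4192 to 5972 in Q140. Of 12 astrocyte markers, 2 were lower and 1 higher, and their sums overlapped (7901 to 10294 and 7275 to 9235 CPM). Of 12 microglia markers 2 were higher and 11 had a positive log2 fold change (sums of 446 to 547 CPM in wild types, 485 to 599 in Q140), and of 12 endothelial and pericyte markers 1 was higher and all 12 were positive (435 to 657 and 534 to 662 CPM). All 12 meningeal markers were positive too, with a median of 0.60, but none passed (35.8 to 474 and 189 to 501 CPM), and of 12 striatal projection neuron markers 2 were lower (426.6 to 1629 and 578 to 1035 CPM). No marker of the excitatory, inhibitory, oligodendrocyte and astrocyte lists was at 0 in any animal, while only 4 of 11 markers of the suprachiasmatic nucleus and hypothalamus passed the filter on low counts. Their part in the fall of the regulators was not tested.

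The animals' names begin with letters that the labels leave unexplained and that are unevenly spread: of the wild types, 4 begin with RFckQ, 1 with RFQ and 1 with FMQ, and of the Q140 animals 1 begins with RFckQ, 3 with RFQ and 2 with no such prefix. Within RFckQ the log2 ratio of Q140 to wild type mean CPM was -0.23 for Tef, -0.16 for Hlf, -0.27 for Dbp, -0.26 for Bhlhe40 and -0.65 for Ciart. Within RFQ it was -0.16, -0.49, -0.16, -0.40 and -0.24 in the same order. All 5 ratios of means were thus negative in both prefixes, with 1 animal on one side each time and no test. These 5 were called lower in the same animals, so the signs within prefixes or shared numbers are not separate support. Of the regulators that did not pass, Nfil3 was at -0.17 within RFckQ and 0.38 within RFQ, and Bhlhe41 at 0.17 and -0.02. Within RFckQ the Bhlhe40 value of Q140 4 (158 CPM) lay inside the wild type range (149 to 245 CPM). Q140 4 is a female, while the RFckQ wild types are of both sexes. After the letters comes a number, and 2 of these numbers are shared by both genotypes, in 1 sex each. In the first, a pair of females, wild type 3 against Q140 4 was at 392 against 316 CPM for Tef, 143 against 129 for Hlf, 130.3 against 101 for Dbp, 245 against 158 for Bhlhe40 and 32.6 against 20.1 for Ciart. In the second, a set of males, wild type 4 was at 339.9, 152, 115, 137 and 25.0 CPM in the same order, above both Q140 3 and Q140 5 (305 to 306, 107 to 116, 91.8 to 108, 99.5 to 115 and 20.3 to 21.1 CPM). Nfil3 was lower in the Q140 female (10.8 against 13.1 CPM) but higher in both Q140 males (8.90 to 10.3 against 7.16 CPM). Bhlhe41 was at 41.8 against 36.6 CPM in the females and 35.8 to 38.0 against 36.0 CPM in the males. With the prefix as a covariate in edgeR none of the 7 passed (5 at an unadjusted p under 0.05), while 0.756% of all genes did. The 5 log2 fold changes were then -0.20 (Tef, adjusted p = 0.112), -0.34 (Hlf, 0.0656), -0.26 (Dbp, 0.184), -0.44 (Bhlhe40, 0.056) and -0.44 (Ciart, 0.0676).

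Females and males were then compared separately, with all 12 animals in 1 model whose 4 groups were genotype by sex. In Q140 females 4 regulators were lower (4.21% of all genes were), and 2 in Q140 males (0.959% of all genes). In females Tef, Dbp, Bhlhe40 and Ciart passed, and in males Tef and Hlf. Tef showed log2 fold changes of -0.27 in females (SE 0.0506, edgeR adjusted p = 0.00927) and -0.23 in males (SE 0.0507, adjusted p = 0.0453). In both sexes its Q140 animals lay below all wild types (307 to 321 against 359.9 to 392 CPM in females, 303 to 306 against 339.9 to 369.9 CPM in males), as do 14.8% and 10.5% of all genes.

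The Hlf log2 fold change in males was -0.44 (SE 0.0597, edgeR adjusted p = 0.00501), with Q140 males at 102 to 116 CPM and wild type males at 141 to 152 CPM. In females it was -0.20 (SE 0.0592, adjusted p = 0.0574), with 116 to 129 against 137 to 145 CPM. Dbp was at -0.43 in females (SE 0.104, adjusted p = 0.0277) and -0.16 in males (SE 0.104, adjusted p = 0.478). Dbp was at 81.0 to 101 CPM in Q140 females against 103 to 130.3 CPM in wild type females, while the males overlapped at 91.8 to 108 and 107 to 122 CPM.

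Bhlhe40 was at -0.63 in females (SE 0.129, edgeR adjusted p = 0.013) and -0.53 in males (SE 0.13, adjusted p = 0.0656). For Ciart the values were -0.71 (SE 0.168, adjusted p = 0.0255) and -0.46 (SE 0.169, adjusted p = 0.188). Neither Nfil3 (-0.09 and -0.12) nor Bhlhe41 (0.09 and -0.05) passed in either sex.

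Whether the Q140 effect differed between females and males was tested directly, and a difference was not detectable for any of the 7 by edgeR, DESeq2 or limma voom. At an unadjusted p under 0.05, edgeR had 1 member: Hlf, whose effect was larger in males (difference -0.24 on the log2 scale, adjusted p = 0.471). DESeq2 had 1 member and limma voom 3 at that level, as had 1465 and 2716 of all genes. Over all genes edgeR found 0 differences, with 1633 at an unadjusted p under 0.05, DESeq2 23 and limma voom 1. The counts within each sex rest on 3 animals per group, and in females they fell to 1 without Q140 1 or wild type 3, to 0 without Q140 2 and to 2 without wild type 2. In males the count was 1 without any one of Q140 1, 2, 3 and 6 or wild types 1 and 5.

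**Figure D3:**
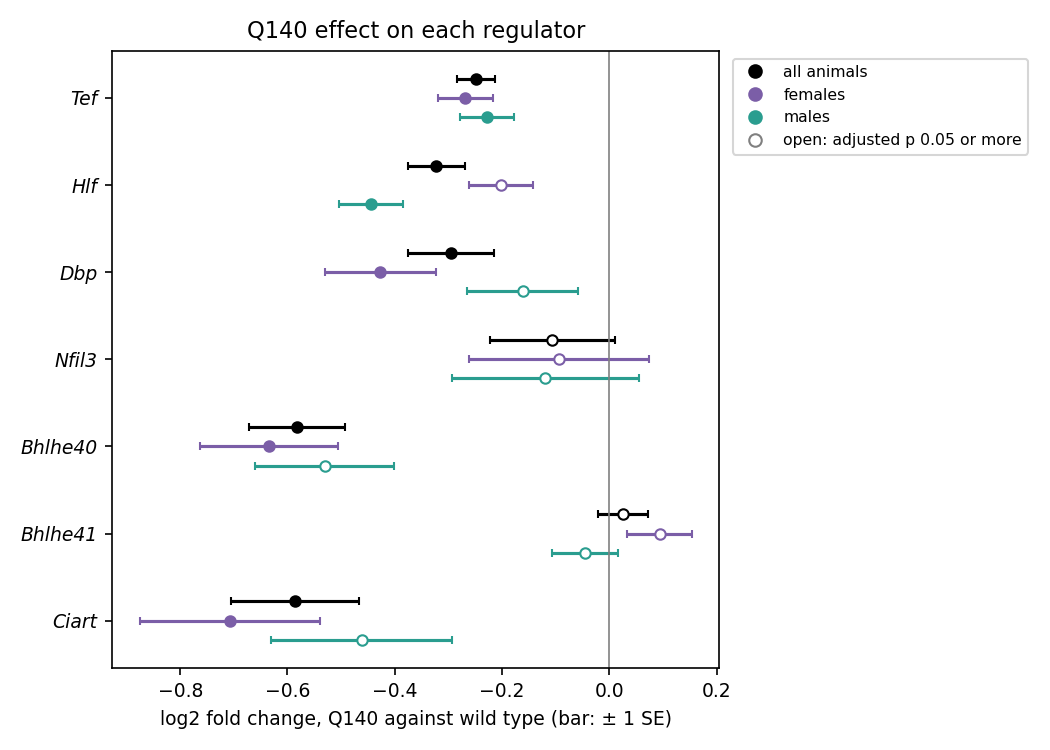
Log2 fold change of each regulator in Q140 against wild type (horizontal axis, bars ± 1 SE from edgeR) over all animals, in females and in males. Filled points have an adjusted p under 0.05; Hlf has its larger value in males (-0.44) and Dbp in females (-0.43), and no difference between the sexes passed the test.

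Males and females were compared with genotype as a covariate. None of the 7 passed the comparison of males with females in edgeR, in which 0.654% of all genes did, and 2 had an unadjusted p under 0.05. Bhlhe40 was lower in males of both genotypes, with means of 150.3 ± 14.3 CPM in wild type males against 206 ± 35.2 in wild type females and 104 ± 9.22 in Q140 males against 133 ± 21.9 in Q140 females (SD, n = 3 each). Its log2 fold change of -0.40 (SE 0.0893) missed the threshold in edgeR (adjusted p = 0.0622), and passed in DESeq2 and limma voom, 1 member each. The other was Bhlhe41, at -0.11 (SE 0.0462, edgeR adjusted p = 0.307).

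Core clock genes upstream of these outputs were lower in part. Of 23 tested, 4 were lower, 0 higher and 19 did not pass, with a median log2 fold change of -0.06 (0.00 over all genes). Among 6 Per, Cry and related repressors, 3 were lower. Per1, a light- and activity-responsive repressor, went from 193 ± 33.3 to 138 ± 17.9 CPM (log2 fold change -0.48, SE 0.0902, edgeR adjusted p = 0.00448). Per3 went from 73.4 ± 7.06 to 59.7 ± 6.75 CPM (-0.30, SE 0.0636, adjusted p = 0.00897) and Cry2 from 197 ± 13.3 to 171 ± 6.12 CPM (-0.21, SE 0.0446, adjusted p = 0.01).

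Of the 5 Rev-erb and ROR nuclear receptors, 1 was lower: Nr1d1, which represses Arntl, at 135 ± 14.9 in wild types and 110.5 ± 11.5 CPM in Q140 (-0.29, SE 0.0793, edgeR adjusted p = 0.0296). None of the 4 activators, Clock, Arntl, Npas2 and Arntl2, passed, and Arntl, which peaks opposite to Dbp and Per genes in a daily cycle, stood at -0.15 (SE 0.0598, adjusted p = 0.125). None of the 8 clock kinases and ubiquitin ligase adaptors passed, with a median of 0.00. With the prefix as a covariate 0 of the 23 passed, and without wild types 3 and 6 it was 3.

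Genes downstream of the regulators come next. Of 11 listed targets of PAR-bZIP factors only 6 passed the filter on low counts, and 0 of these were lower or higher in edgeR or limma voom, with 1 at an unadjusted p under 0.05 and a median of -0.02. That gene was Slc6a9, a glycine transporter, at 52.7 ± 4.96 in wild types and 62.3 ± 7.25 CPM in Q140 (log2 fold change 0.24, SE 0.0736, edgeR adjusted p = 0.0524). DESeq2 counted 1 target higher, as edgeR did without Q140 5 or without wild type 2. So did edgeR with upper quartile factors, and limma on log2(FPKM + 0.1) and on log2(FPKM + 1). With no filter on low counts edgeR had 1 higher and 1 lower. Pdxk, the pyridoxal kinase gene, was at 154 ± 6.95 and 155 ± 15.4 CPM (0.00, SE 0.0468), Por at -0.03 and Alas1 at -0.02, all on the log2 fold change scale.

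Of 11 tested genes listed as other E-box output genes, whose own E-boxes were not checked here, 2 were lower and 0 higher, with a median of 0.01. Usp2, a ubiquitin protease gene that cycles in many tissues, was at 94.9 ± 8.37 and 81.4 ± 4.89 CPM (-0.22, SE 0.0607, edgeR adjusted p = 0.0309). The second was Pdp1 (-0.43, SE 0.0501, adjusted p = 0.000203), which in the mouse encodes a pyruvate dehydrogenase phosphatase and shares only its name with the fly PAR-bZIP gene. It was listed by that name, so of the 2 only Usp2 is taken here as a clock output gene. Wee1 (-0.16, adjusted p = 0.0962) and Tsc22d3 (0.28, adjusted p = 0.126) did not pass. The count of 2 was 1 with the prefix as a covariate and without any one of Q140 1, 2, 3 and 5 or wild types 1, 2, 3 and 5. Pdp1 is among the genes counted, and which gene remained at a count of 1 is not given here.

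Relatives by protein family were counted too. Of 8 other bZIP genes 1 was lower, Batf3 (1.94 ± 0.562 to 1.09 ± 0.239 CPM, log2 fold change -0.84, SE 0.18, edgeR adjusted p = 0.00957), and Atf5 stood at 0.23 (adjusted p = 0.06), with a median of 0.01 over the 8. Of 7 Hes and Hey genes, the family nearest to Bhlhe40 and Bhlhe41, 2 were lower: Hey1 (-0.25, SE 0.0576, adjusted p = 0.0136) and Hes5 (-0.41, SE 0.12, adjusted p = 0.0437), both Notch targets. Hey2 stood at 0.27 (adjusted p = 0.056), and the median was 0.00. The count of 2 was 0 with the prefix as a covariate, and 1 without wild types 3 and 6 or without any one of Q140 1, 2 and 6 or wild types 1, 2, 3, 4 and 6. That of the bZIP genes was 0 in both the former settings.

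A further pair of lists, of signals that reach clock genes from outside the loop, was also counted. Immediate early genes, induced within minutes by neuronal activity, held 23 tested genes: 9 were lower, 0 higher, and 22 had a negative log2 fold change, with a median of -0.34. Egr2 (-1.19, SE 0.191, edgeR adjusted p = 0.00177), a zinc finger factor, had the smallest p, followed by the phosphatases Dusp1 (-0.49, adjusted p = 0.00211) and Dusp6 (-0.38, adjusted p = 0.00773) and the secreted pentraxin Nptx2 (-0.48, adjusted p = 0.0079). The summed level of the list was 1421 to 2144 CPM in wild types, where wild type 4 was lowest, and 1370 to 1883 CPM in Q140, where Q140 4 was highest. These are also the animals with the lowest wild type and highest Q140 value of Bhlhe40, and of Bhlhe41, which did not pass the test. Wild type 4 was also the lowest wild type for Tef and Nfil3, and Q140 4 the highest Q140 animal for Hlf. With the prefix as a covariate 1 of the 23 was lower, and 6 were without wild types 3 and 6.

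Glucocorticoid-responsive genes, which follow the daily and stress-related release of corticosterone, held 15 tested genes, of which 2 were higher and 0 lower, with a median log2 fold change of 0.22. These were Arrdc2 (0.47, SE 0.111, edgeR adjusted p = 0.0162) and Plin4 (0.99, SE 0.293, adjusted p = 0.0442), while Cdkn1a (-0.37, adjusted p = 0.0645) and Pdk4 (0.31, adjusted p = 0.0693) did not pass. Summed, the list spanned 464 (Q140 5) to 689.8 CPM in Q140 and 509 to 567 CPM in wild types. The Q140 females, Q140 1 (689.8), Q140 2 (684) and Q140 4 (601), lay above all wild types. Of the Q140 males, Q140 3 (556) and Q140 6 (514) lay within the wild type range and Q140 5 below it. In females and males the log2 fold changes were 0.62 and 0.31 for Arrdc2 and 1.48 and 0.41 for Plin4. By edgeR, 0 genes passed the test of a difference between the sexes. The count of 2 was 0 with the prefix as a covariate, 0 without wild types 3 and 6, 6 without Q140 5, and 1 without any one of Q140 1, 2, 3 and 4 or wild types 2, 5 and 6. Q140 1 and Q140 2, both females, are also the Q140 animals with the lowest Dbp (87.4 and 81.0 CPM) and the lowest Ciart (16.1 and 14.9 CPM), and the 2 without a name prefix. The part of either list in the regulators' levels was not tested.

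**Figure D4:**
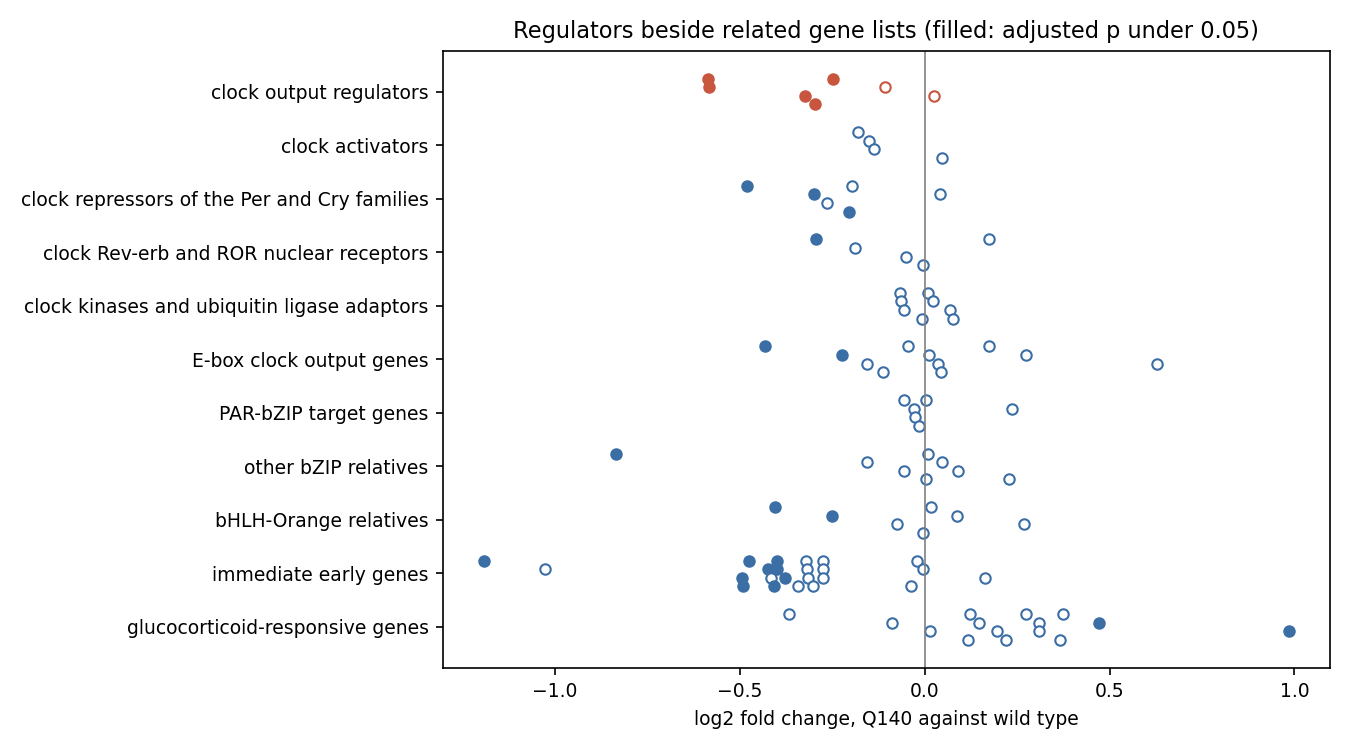
Log2 fold change in Q140 against wild type (horizontal axis), 1 point per gene, for the 7 regulators (red) and for core clock roles and related lists (blue); filled points have an adjusted p under 0.05. Of the 7 regulators 5 are filled and left of 0, against 4 of 23 core clock genes, 0 of 6 PAR-bZIP targets and 9 of 23 immediate early genes.

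Animal-to-animal variation was examined after subtracting the mean of each genotype and sex group from log2 CPM, over 12 animals and 21 pairs of regulators, with permutations within those groups. No pair passed adjustment, 19 of the 21 correlations were positive, and 2 had an unadjusted p under 0.05. Dbp and Ciart had Pearson r = 0.855 (permutation p = 0.0115, adjusted 0.24) and Spearman rho = 0.86 (permutation p = 0.0123, adjusted 0.167), with r = 0.809 without Q140 5 and wild type 6, the 2 animals farthest from the median. Bhlhe40 and Ciart had r = 0.767 (permutation p = 0.0366, adjusted 0.384) and rho = 0.832 (permutation p = 0.0159, adjusted 0.167), with r = 0.634 without Q140 4 and wild type 3. Centred within genotype only, with sex left in, Bhlhe40 and Ciart were at r = 0.09 and rho = -0.09. Tef and Hlf, whose genotype groups did not overlap, had r = -0.04 (permutation p = 0.885, adjusted 0.962) and rho = -0.03 (permutation p = 0.934, adjusted 0.934), and r = 0.382 without wild types 2 and 4.

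**Figure D5:**
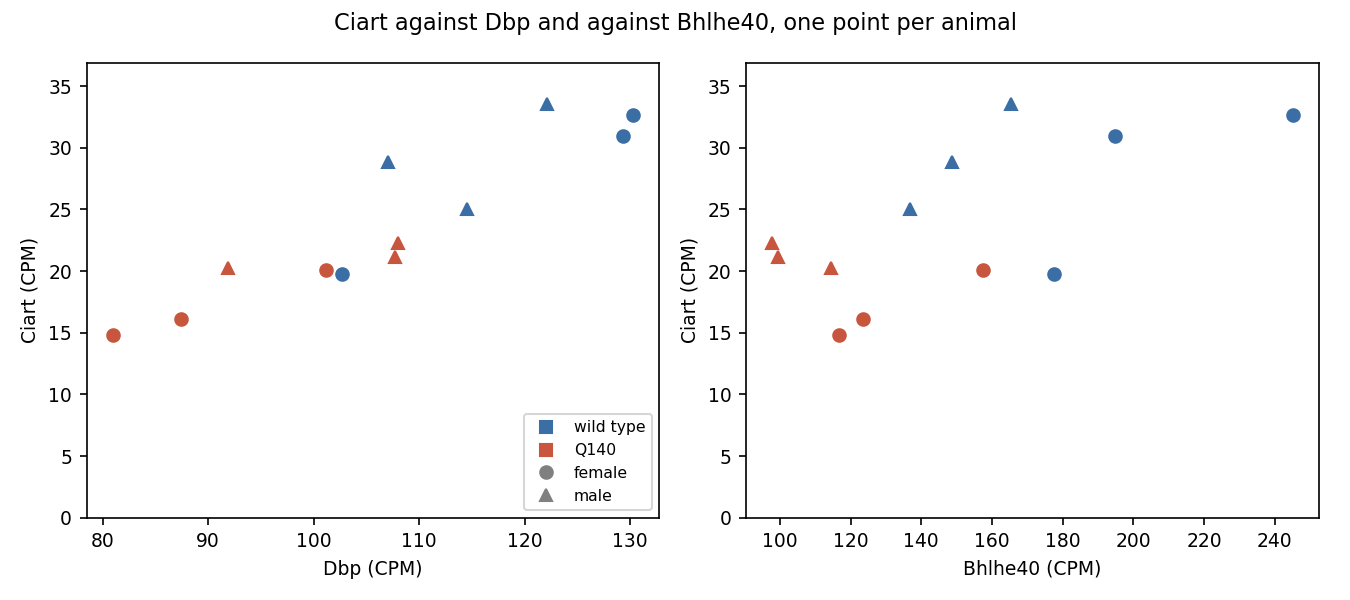
Ciart (vertical axis, CPM) against Dbp and against Bhlhe40 (horizontal axes, CPM), 1 point per animal, colour for genotype and shape for sex. The values are not centred by genotype or sex, unlike those of the correlations. Wild type 6, the wild type lowest in Ciart (19.8 CPM), is also the lowest in Dbp (103 CPM), and Q140 2 is lowest in both genes (14.9 and 81.0 CPM).

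On the same residual scale, the 3 genes nearest to each regulator were sought among 15480 genes with a mean of at least 1 CPM, as a description over 12 animals. The other regulators were left out of the search, and only the highest positive r was taken. The top few of so many genes over 12 animals can reach a high r by selection alone, and none was tested. Nearest to Tef were Lin37 (r = 0.94), Glt1d1 (0.919) and Gm5841 (0.913), and nearest to Hlf were Slc16a11 (0.963), RP23-389K5.5 (0.953) and Mrvi1 (0.937). Dbp was followed by B9d2 (0.947), Hmgb3 (0.941) and Kcnk15 (0.938), and Nfil3 by Ccdc92 (0.944), C130060K24Rik (0.939) and Gtpbp1 (0.937). Bhlhe40 was most like Gm7984 (0.97), Tut1 (0.89) and Ube2e1 (0.881), and Bhlhe41 most like Gm37670 (0.944), Tnfrsf13b (0.9) and Nrep (0.879). Ciart was most like Rbfox3 (0.954), which encodes the neuronal splicing factor NeuN, 4930452B06Rik (0.95) and Vstm2l (0.943). No core clock gene was among the 21. Rbfox3 was itself lower in Q140 (349 to 291 CPM, log2 fold change -0.26, SE 0.0641, edgeR adjusted p = 0.0185), as was Nrep (20.6 to 16.7 CPM, -0.30, SE 0.0693, adjusted p = 0.0141), and the other 19 did not pass.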

How the data were processed

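RNA-seq libraries of 12 animals, 6 per genotype, were analysed from 2 deposited tables. The authors deposited whole-number read counts per gene, not normalized, and FPKM values, both of 48795 genes. Reads had been handled with HTSeq 0.12.3, SAMtools 1.10 and STAR 2.7.5c on GRCm38 (mm10), per the submitters' processing notes. RNA extraction used a Qiagen RNeasy kit and libraries a stranded TruSeq preparation, per the labels' protocols. How strand was treated, and which annotation release served, is not given in the sources used here.

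Counts were tested with edgeR 4.0.16 (R 4.3.3): TMM normalization, the default expression filter by genotype (17725 genes kept), the quasi-likelihood test with sex as a covariate, and for the sexes contrasts in a model of 4 groups over all 12 animals. CPM uses TMM-scaled totals. Adjusted p-values are two-sided Benjamini-Hochberg values over all genes tested. Intervals are 95% and use the test's own degrees of freedom. Total counts were 19587208 to 35198602 per animal, and a gene with 0 counts could lie at up to 0.149 CPM in the shallowest library (3 counts, counting error only). Every p-value rests on the variation from animal to animal. Correlations used 100000 permutations within genotype and sex. Coordinates are those of GENCODE on GRCm38, and promoter windows those of RefSeq. The fits were tested on simulated data.

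Alternatives were other size factors and filters, DESeq2 1.42.0, limma 3.58.1 (voom, and log2 FPKM with pseudocounts of 0.1 and 1), no sex covariate, the name prefix as a covariate and each animal left out; leaving out wild types 3 and 6 together, and a block on the numbers in the animals' names, were added later. The regulators and the lists were chosen with earlier results of these data known. Named genes are the 7 regulators, up to 4 genes of each list with the smallest unadjusted p under 0.05 (or else 1), and the 3 genes nearest to each regulator; Slc17a7, Htt, the overlapping genes and the other genes given in passing (Clock, Arntl, Npas2, Arntl2, Pdxk, Por and Alas1) were named outside this rule. The lists' symbols Nfilz and Ccn1 were not used here.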

Additional observations from a re-analysis of the deposited data

How the results depend on the processing

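Tef, Hlf and Bhlhe40 kept their direction in all 25 alternatives and passed in 23, the exceptions being the prefix covariate and the block on name numbers below; Ciart passed in 22 and Dbp in 14, both with their direction kept. The count of 5 lower regulators was 4 to 5 with each animal left out, 3 with limma on log2(FPKM + 1) over all genes above 0, and 0 with the prefix as a covariate, and 0 were higher in every alternative. In females the count of 4 was 2 with limma on log2(FPKM + 0.1) and on log2(FPKM + 1), 1 with all genes above 0, and 0 to 5 with each animal left out. Wild types 3 and 6 are both females. Without them wild type 2 is the only wild type female, so no count is given for females in that setting. In males the count of 2 was 1 with upper quartile factors and in the 3 FPKM fits, and 1 to 3 with each animal left out. Between males and females 1 regulator passed, in place of 0, with no filter on low counts, with DESeq2 and with limma voom. The 20 list genes called were 10 in the FPKM fit over all genes above 0, 2 with the prefix covariate, 13 without wild types 3 and 6 and 13 to 25 with each animal left out. Centred within genotype only, 1 pair correlated past the threshold (Dbp and Ciart, r = 0.844), in place of 0. In that setting 15 of the 21 correlations were positive, in place of 19, and Bhlhe40 and Ciart fell to r = 0.09 (permutation p = 0.8025).

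Signs turned only for values that had not passed. Nfil3 was at 0.0667 with the prefix covariate and Bhlhe41 at -0.00795 without wild types 3 and 6. In males Nfil3 was at 0.0911 without wild type 5 (-0.310 to 0.0911 over the animals left out), and Bhlhe41 at 0.0062, 0.0057 and 0.0057 in the FPKM fits and 0.0128 without Q140 6 (-0.0983 to 0.0128). For the contrast of the sexes' effects, Tef was at -0.0347 without wild types 3 and 6, Bhlhe40 at -0.0413 without wild type 3 (-0.0413 to 0.245), and Nfil3 at 0.0339, 0.0251 and 0.0251 in the FPKM fits, 0.0136 without wild types 3 and 6, and -0.216 to 0.186 over the animals left out. The causes were not tested. The labels give no replicate numbers, but 5 animals share 1 of 2 numbers in their names across the genotypes. Their deviations from the means of genotype and sex, across 15487 genes, correlated at -0.27 (wild type 3 and Q140 4), 0.17 (wild type 4 and Q140 3) and 0.12 (wild type 4 and Q140 5), against -0.37 to 0.44 for 33 pairs of other numbers, so these values do not show that a number pairs animals. With the name number as a replicate block in edgeR, added after the data were examined, the genotype difference rests on those 5 animals: 0 regulators were lower, 5 at an unadjusted p under 0.05, 0 list genes passed and 1 of all genes did, with Tef at -0.22, Hlf at -0.32, Dbp at -0.27, Bhlhe40 at -0.48, Ciart at -0.46 and Nfil3 at 0.0969. Nfil3, at 171 reads in its lowest animal, is the regulator for which depth limits the precision most.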
